A study of Mus musculus with 6 samples.

Results

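Transcripts of 5 ATG8 genes and 5 autophagy receptor genes were examined in livers that carried a synthetic adapter between lipid droplets and the ATG8 proteins or its mutant form. The 10 genes were taken by symbol, namely the LC3 genes Map1lc3a and Map1lc3b, the GABARAP genes Gabarap, Gabarapl1 and Gabarapl2, and the receptor genes Sqstm1, Optn, Nbr1, Calcoco1 and Tax1bp1. All 10 were among the 24346 gene symbols of the expression table, and all 10 passed the filter for testing, a mean of at least 0.5 FPKM (fragments scaled to transcript length and to the mapped fragments of the library) over the livers.

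Macroautophagy encloses cytoplasm in a double membrane, the autophagosome, and delivers it to the lysosome. ATG8 proteins are small ubiquitin-like proteins that ATG4 proteases trim to a terminal glycine and that a conjugation cascade then attaches to phosphatidylethanolamine of the growing membrane. Autophagy receptors bind cargo, often through ubiquitin, and hold it to the membrane through an LC3-interacting region (LIR), a short stretch that docks onto ATG8 proteins. The receptors are themselves degraded with their cargo, so in the liver the amount of p62, the product of Sqstm1, is widely read as a measure of autophagic flux at the protein level. Only RNA was measured here.

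The livers came from male C57BL/6J mice that were fed CDAHFD, a high-fat diet with defined amino acids that lacks choline, from an age of 8 weeks for 6 weeks, a model of nonalcoholic steatohepatitis. The mice then received AAV8 by vein, returned to normal chow and were analysed 2 weeks later. In the control group (3 livers) the virus encoded LDTS-LIR mut and in the lipophagy group (3 livers) LDTS-eLIR. LDTS is a lipid droplet-targeting sequence taken from mouse perilipin 1, eLIR is a fragment of human OPTN engineered for strong ATG8 binding, and LIR mut is the same fragment with alanine substitutions that abolish it. Both groups therefore carried the virus, the droplet-targeting part, which by itself had some lipogenic effect, and an OPTN fragment. Expression was driven by the thyroxine-binding globulin promoter, which is active in hepatocytes, whereas RNA was taken from whole liver. In such bulk tissue fewer cells of a type and less RNA per cell cannot be told apart.

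The depth estimated from the values was 23.7 to 33.9 M fragments in control livers and 22.8 to 24.7 M in lipophagy livers, and rested on an assumed transcript length. At the length of its longest annotated transcript, even the lowest of the 10 genes, Calcoco1, corresponded to an estimated 615 fragments or more per liver. This leaves a counting error of at most 4.03% at that length, and for Sqstm1 it was at most 0.879%. A shorter transcript would give fewer fragments and a larger error. All FPKM values together came to more in the lipophagy group (709993 to 782392) than in the control group (622696 to 681138). The 6 hepatocyte markers alone added up to 56149 to 63343 FPKM in control livers and 68203 to 89973 FPKM in lipophagy livers. Scaling the livers to the same sum (written as the same sum from here on) shifted the median log2 difference of all genes by -0.14.

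The sequence element that the adapters imitate is a LIR, and the mouse genes hold their own. The following stretches are 60 bases of the coding sequences of Optn, whose human counterpart supplied the adapter, and of Sqstm1 and Nbr1, 2 other receptors with a well-defined LIR. Capitals mark the 4 codons of the LIR core, found by searching each reading frame for the codons of the known core with some bases left free, which gave 1 in-frame match per gene (GENCODE vM21 transcripts, build GRCm38).
Optn, coding bases 538 to 597: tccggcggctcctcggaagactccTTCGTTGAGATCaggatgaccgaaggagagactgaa
Sqstm1, coding bases 994 to 1053: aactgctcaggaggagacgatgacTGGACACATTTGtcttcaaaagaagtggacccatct
Nbr1, coding bases 2224 to 2283: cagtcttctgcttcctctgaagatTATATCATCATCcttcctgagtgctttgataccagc
The core codons differ between the 3 receptors. Optn lies on chromosome 2 (5020642 to 5064051, minus strand, 14 exons), Sqstm1 on chromosome 11 (50199366 to 50210827, minus strand, 8 exons) and Nbr1 also on chromosome 11 (101552149 to 101581951, plus strand, 24 exons). Whether reads from the human OPTN fragment of the vectors were counted towards Optn was not tested.

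The other side of the contact is the ATG8 protein, whose coding sequence ends as follows, with the last glycine codon, the site of lipid conjugation, in capitals and the stop codon at the end.
Map1lc3a: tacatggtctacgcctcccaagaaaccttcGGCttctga
Map1lc3b: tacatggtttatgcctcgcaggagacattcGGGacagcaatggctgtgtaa
Gabarap: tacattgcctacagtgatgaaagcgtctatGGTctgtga
Gabarapl1: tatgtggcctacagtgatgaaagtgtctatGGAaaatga
Gabarapl2: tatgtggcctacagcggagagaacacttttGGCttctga
Map1lc3b had 5 codons after the glycine for ATG4 to remove and the other 4 genes had 1 codon each. Over the coding sequence Map1lc3a and Map1lc3b were 76.5% identical and Gabarap and Gabarapl1 were 74.9% identical, and the least alike pair, Map1lc3a and Gabarapl1, was 53.4% identical. No exact stretch between these 5 genes was longer than 17 bases, against reads of 100 bases. Of the 100-base windows of the Map1lc3b transcript 8.80% also occurred in other annotated genes, Gm12727, Gm6054 and Gm6055, and of those of Gabarapl2 9.57% occurred in Gm3724, Gm5829 and Gm6051. The levels of these 2 genes are therefore less certain. Windows whose reverse complement occurs in a transcript of another gene made up 16.3% of Gabarapl1 and 0.879% of Tax1bp1, and whether the counting used strand is not given in the sources used here.

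Livers of this model expressed Gabarap and Gabarapl1 far above the LC3 genes, and Gabarapl2 nearer to Map1lc3b. Gabarap and Gabarapl1 stood above 96% of all tested genes in mean FPKM, as did Sqstm1. In control livers the order of mean FPKM, a level per transcript length, was Gabarap (276 ± 34.6, SD, n = 3), Sqstm1 (270 ± 10.3), Gabarapl1 (216 ± 15.6), Gabarapl2 (83.7 ± 10.3), Map1lc3b (62.2 ± 5.76), Tax1bp1 (45.1 ± 1.71), Nbr1 (38.4 ± 1.19), Map1lc3a (35.1 ± 5.18), Optn (25.9 ± 1.52) and Calcoco1 (13.2 ± 1.03). The ranges of Gabarap and Sqstm1 overlapped, as did those of Nbr1 and Map1lc3a, and all other neighbours in this order were apart in all 3 livers. In lipophagy livers the order was the same, but Gabarap (304 ± 21.8) now stood apart from Sqstm1 (229 ± 19.03), and Sqstm1 overlapped with Gabarapl1 (229 ± 18.4) instead. Nbr1 (41.2 ± 3.94) and Map1lc3a (33.8 ± 1.86) were also apart there.

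**Figure D1:**
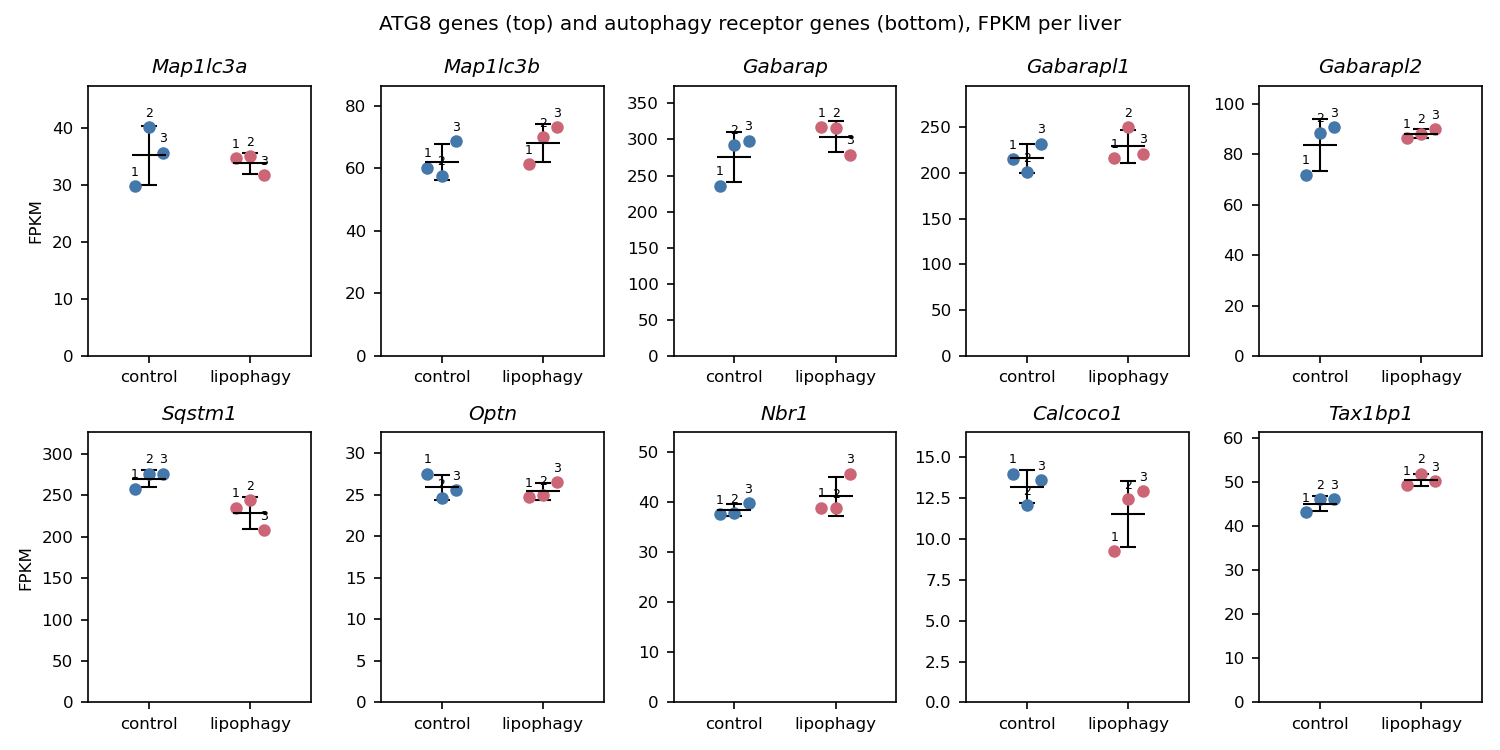
FPKM of the 10 genes in each liver (points, numbered by liver) with the mean and SD of 3 livers per group, each panel with its own axis from 0. The groups are apart only for Sqstm1, at 258 to 276 FPKM in control and 208 to 244 FPKM in lipophagy livers, and for Tax1bp1, at 43.1 to 46.1 and 49.3 to 51.9 FPKM.

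Comparing the groups asks whether 2 weeks of adapter-driven lipophagy went with another supply of the machinery that the adapter uses. No gene of the 10 passed the adjustment over all 11493 tested genes at 0.05 (limma, Benjamini-Hochberg), where 0.0261% of tested genes did. One receptor, Sqstm1, had an unadjusted p below 0.05, a share of 1 in 10 against 19.5% of all tested genes. Of the 10 genes 6 had a higher mean in lipophagy livers, against 54.5% of all tested genes, and 4 a lower one, against 45.5%. The median log2 difference was 0.082 against 0.020 over all genes. With the same sum 0 of the 10 genes were higher and 10 lower, where the median over all genes was -0.12. After quantile normalization 1 was higher and 9 were lower, where the median over all genes was 0.0074. Each of the 95% intervals lay within 0.5 of 0 on the log2 scale, so differences of that size were outside the range that these livers allow at the deposited scaling.

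Among the LC3 genes, Map1lc3b, which encodes LC3B, the ATG8 protein most often used as an autophagosome marker, was at 60.3, 57.6 and 68.6 FPKM in control livers 1, 2 and 3 and at 61.4, 69.9 and 73.2 FPKM in lipophagy livers 1, 2 and 3. The groups overlapped through lipophagy liver 1 and control liver 3, and the log2 difference was 0.13 (standard error 0.10, 95% interval -0.10 to 0.36, adjusted p = 0.486, limma) and 0.078 to 0.20 with each liver left out in turn. With the same sum this difference turned to -0.049 and after quantile normalization to -0.018. Map1lc3a, which encodes LC3A, was at 29.7, 40.1 and 35.6 FPKM in control livers and 34.7, 35.0 and 31.6 FPKM in lipophagy livers. The lipophagy values all lay inside the control range, and the log2 difference of -0.046 (standard error 0.11, interval -0.31 to 0.22) turned to 0.051 without control liver 2 and was -0.22 with the same sum (adjusted p = 0.207, limma) and -0.17 after quantile normalization.

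Gabarap, which encodes the founding member of the GABARAP branch, was at 236, 293 and 298 FPKM in control livers and 317, 316 and 279 FPKM in lipophagy livers. Control liver 1 was the lowest and lipophagy liver 3 lay among the controls, so that the log2 difference of 0.15 (standard error 0.11, interval -0.12 to 0.41, adjusted p = 0.492, limma) was 0.038 without control liver 1. It turned to -0.037 with the same sum and to -0.033 after quantile normalization. Gabarapl1, whose transcription FOXO factors are known to raise in several tissues, was at 215, 201 and 232 FPKM in control livers and 216, 250 and 221 FPKM in lipophagy livers. These groups overlapped as well, with a log2 difference of 0.083 (standard error 0.095, interval -0.14 to 0.30) that was 0.032 without control liver 2, 0.14 without control liver 3 and 0.018 without lipophagy liver 2. With the same sum it was -0.10 and after quantile normalization -0.096. Gabarapl2, known also as GATE-16 and for its part in transport through the Golgi, was at 71.96, 88.5 and 90.7 FPKM in control livers and 86.3, 88.2 and 90.0 FPKM in lipophagy livers. Only control liver 1 stood away from the other 5 livers, and without it the log2 difference of 0.081 (standard error 0.10) became -0.023. With the same sum this difference was -0.10 and after quantile normalization -0.054.

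Summed over the 5 ATG8 genes, the control livers held 613, 680 and 725 FPKM and the lipophagy livers 715, 759 and 695 FPKM. The difference of the means, 50.3 FPKM, was within the spread between livers (673 ± 56.6 and 723 ± 33.1, SD, n = 3, two-sided exact permutation test, p = 0.3), and it was -36.6 FPKM with livers scaled to the same sum and -30.2 FPKM after quantile normalization. It was 20.3 FPKM without control liver 1, 32.1 FPKM without lipophagy liver 2 and 76.6 FPKM without control liver 3. The LC3 genes supplied 14.7%, 14.4% and 14.4% of the sum in control livers and 13.4%, 13.8% and 15.1% in lipophagy livers (exact permutation test, p = 0.5). The makeup of the ATG8 pool, a ratio within each liver that no scaling factor can move, thus overlapped between the groups. Gabarap made up 38.5% to 43.1% of the pool in control livers and 40.1% to 44.3% in lipophagy livers. Looked at gene by gene, a choice made after the values were seen, the one component that did not overlap was Map1lc3a, at 4.85%, 5.89% and 4.90% in control livers and 4.85%, 4.61% and 4.55% in lipophagy livers, where control liver 1 and lipophagy liver 1 differed by less than 0.01 points.

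Of the 3 receptors with a lower mean in lipophagy livers, Sqstm1 was the one whose groups did not overlap. Its product p62 collects ubiquitinated cargo and also binds KEAP1, the inhibitor of the transcription factor NRF2. Sqstm1 was at 258, 276 and 276 FPKM in control livers 1, 2 and 3 and at 235, 244 and 208 FPKM in lipophagy livers 1, 2 and 3. Every lipophagy liver was below every control liver, as for 10.8% of all tested genes, and lipophagy liver 3 was the lowest. The log2 difference was -0.24 (standard error 0.091, 95% interval -0.45 to -0.032), a fold of 0.846, with an unadjusted p of 0.0288 and an adjusted p of 0.219 (limma). The unadjusted p was 0.0901 without control liver 2, 0.0850 without control liver 3 and 0.0928 without lipophagy liver 3 (limma), where the difference was -0.17. With livers scaled to the same FPKM sum the difference was -0.42 and its adjusted p 0.0452 (limma), and measured from the median of all genes it was -0.26 at the deposited scaling, -0.30 with the same sum and -0.43 after quantile normalization, where its adjusted p was 0.0903 (limma).

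Tax1bp1 had the opposite direction at the deposited scaling and with livers scaled to the same median (0.16). Its product is a relative of NDP52 that binds ubiquitin and brings the ULK complex to cargo. Tax1bp1 was at 43.1, 46.1 and 46.1 FPKM in control livers and 49.3, 51.9 and 50.2 FPKM in lipophagy livers. Every lipophagy liver was above every control liver, as for 15.4% of all tested genes, with a log2 difference of 0.16 (standard error 0.073, interval -0.0081 to 0.33) and an adjusted p of 0.273 (limma). The groups overlapped under the remaining scalings, where the difference was -0.020 with livers scaled to the same sum and 0.014 after quantile normalization. Tax1bp1 lies on chromosome 6 (52713729 to 52766780, plus strand, 18 exons).

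The other 3 receptors overlapped between the groups. Optn, which encodes a receptor for mitochondria and bacteria that TBK1 phosphorylates next to its LIR, was the steadiest gene of the 10, with a coefficient of variation of 4.59% over all 6 livers. It was at 27.6, 24.6 and 25.5 FPKM in control livers and 24.7, 25.0 and 26.6 FPKM in lipophagy livers, a log2 difference of -0.025 (standard error 0.078, interval -0.21 to 0.16) that was -0.20 with the same sum (adjusted p = 0.244, limma) and -0.15 after quantile normalization. Without control liver 1 this difference turned to 0.019. Nbr1, whose product works with p62 and takes part in the autophagy of peroxisomes, was at 37.7, 37.9 and 39.8 FPKM in control livers and 39.0, 38.9 and 45.7 FPKM in lipophagy livers. Only lipophagy liver 3 lay above the controls, and the log2 difference of 0.094 (standard error 0.088, interval -0.11 to 0.30) was 0.018 without it. With the same sum the difference of Nbr1 was -0.085 and after quantile normalization -0.037. Calcoco1, whose product has been described as a receptor for the endoplasmic reticulum and the Golgi, was at 13.998, 12.1 and 13.6 FPKM in control livers and 9.24, 12.4 and 12.9 FPKM in lipophagy livers. Lipophagy liver 1 alone lay below the controls, and the log2 difference of -0.19 (standard error 0.13, interval -0.49 to 0.10) was -0.053 without it and -0.36 with the same sum (adjusted p = 0.194, limma).

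Groups that did not overlap were thus found for 2 of the 10 genes, against 26.2% of all tested genes in either direction, a share that is not above the background. The count was 5 without control liver 3, against 34.5% of all tested genes, 3 with the same sum, against 29.9%, and 1 after quantile normalization, against 20.4%.

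**Figure D2:**
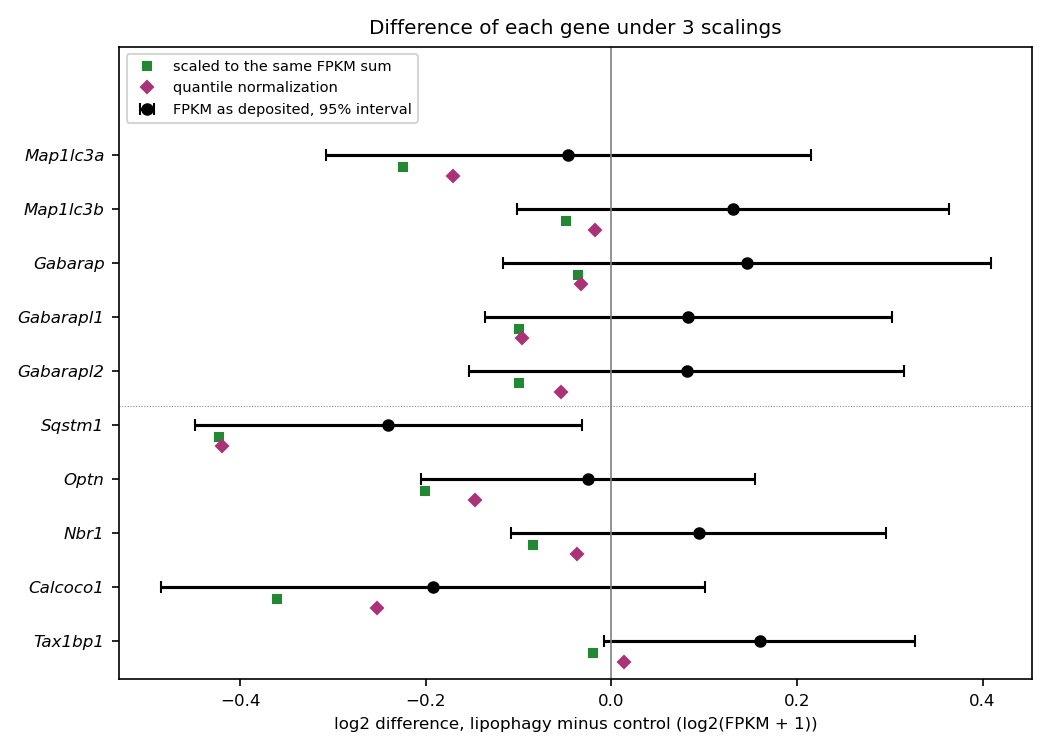
Log2 difference (lipophagy minus control, on log2(FPKM + 1)) of each gene at the deposited scaling with its 95% interval (black), with livers scaled to the same FPKM sum (green squares) and after quantile normalization (purple diamonds). Sqstm1 is the gene whose interval leaves out 0 (-0.24), and under both other scalings the values lie further to the left, with Sqstm1 at -0.42 in both.

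The 5 receptors together came to 381, 397 and 401 FPKM in control livers and 357, 372 and 343 FPKM in lipophagy livers, a difference of -35.3 FPKM with no overlap between the groups (p = 0.1 in a two-sided exact permutation test, the smallest p that 3 livers against 3 allow). It was -83.0 FPKM with livers scaled to the same sum and -77.6 FPKM after quantile normalization. Sqstm1 was the bulk of it, with 67.9%, 69.6% and 68.8% of the receptor sum in control livers and 65.8%, 65.6% and 60.5% in lipophagy livers (exact permutation test, p = 0.1). Set against the ATG8 sum of the same liver, receptors came to 0.621, 0.583 and 0.553 in control livers and 0.499, 0.490 and 0.494 in lipophagy livers, and this ratio, too, was lower in 3 of 3 lipophagy livers (0.586 ± 0.0339 and 0.495 ± 0.0045, SD, n = 3, exact permutation test, p = 0.1). The lipophagy livers lay in a narrow band around a mean 15.6% below that of the controls. Multiplying a liver by any factor leaves this ratio as it is.

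The following ratios were chosen after the values were seen and are given as a description, with no test. Sqstm1 alone stood to the ATG8 sum at 0.421, 0.406 and 0.381 in control livers and 0.329, 0.322 and 0.299 in lipophagy livers. The other 4 receptors over the ATG8 sum were at 0.200, 0.177 and 0.172 in control livers and 0.171, 0.169 and 0.195 in lipophagy livers. Sqstm1 was thus apart between the groups and the rest of the receptors overlapped. Since Sqstm1 makes up most of the receptor sum, a lower Sqstm1 raises the shares of the other receptors whatever their own level does. Tax1bp1 took 11.33% to 11.6% of the sum in control livers and 13.8% to 14.6% in lipophagy livers, and Nbr1, whose FPKM overlapped, 9.55% to 9.92% and 10.4% to 13.3%. The shares of Optn (6.199% to 7.24% and 6.71% to 7.74%) and Calcoco1 (3.04% to 3.68% and 2.59% to 3.77%) overlapped.

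**Figure D3:**
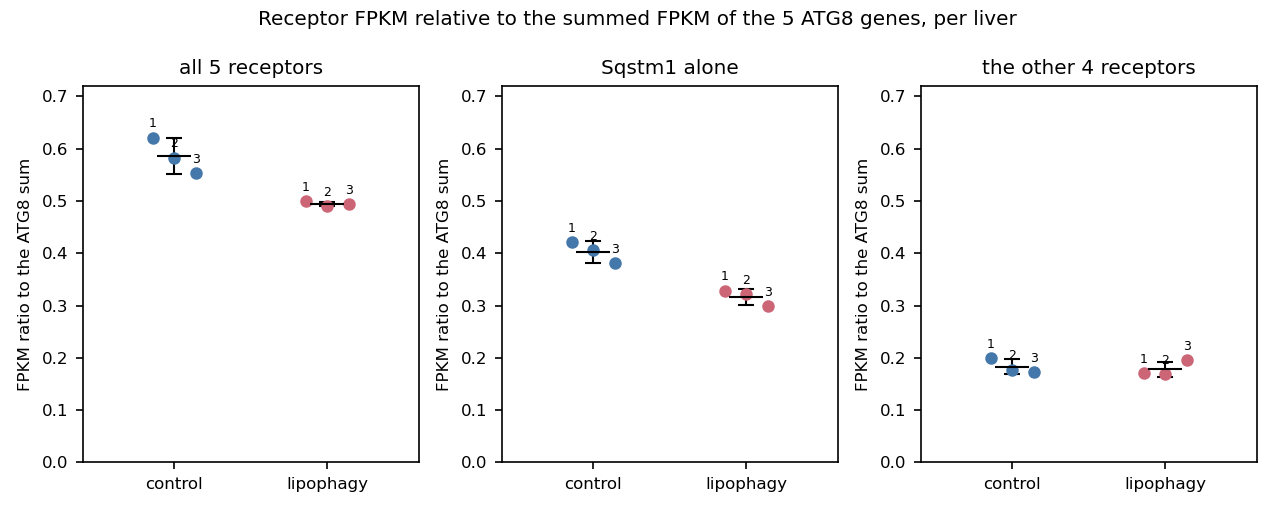
Receptor FPKM divided by the summed FPKM of the 5 ATG8 genes of the same liver (points, numbered by liver, with mean and SD of 3 livers) for all receptors, for Sqstm1 and for the other 4 receptors. The ratio of all receptors is 0.553 to 0.621 in control and 0.490 to 0.499 in lipophagy livers, the ratio of Sqstm1 is apart in the same way, and that of the other 4 overlaps.

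The promoters of the 2 genes whose livers did not overlap are shown as a description (RefSeq, build GRCm38.p6, 250 bases before to 50 after an annotated start, 9 of the 10 genes having an entry, Map1lc3a without one). Capitals mark a GC box (GGGCGG, or CCGCCC on the other strand) and a TATA box (TATAAA).
Sqstm1, chr11:50210771-50211070, minus strand: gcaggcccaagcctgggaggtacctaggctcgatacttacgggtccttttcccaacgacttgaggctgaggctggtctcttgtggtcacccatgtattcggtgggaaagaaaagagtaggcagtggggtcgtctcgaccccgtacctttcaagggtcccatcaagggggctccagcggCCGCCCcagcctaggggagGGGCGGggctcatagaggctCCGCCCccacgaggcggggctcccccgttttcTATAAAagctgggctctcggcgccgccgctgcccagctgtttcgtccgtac
Tax1bp1, chr6:52713479-52713778, plus strand: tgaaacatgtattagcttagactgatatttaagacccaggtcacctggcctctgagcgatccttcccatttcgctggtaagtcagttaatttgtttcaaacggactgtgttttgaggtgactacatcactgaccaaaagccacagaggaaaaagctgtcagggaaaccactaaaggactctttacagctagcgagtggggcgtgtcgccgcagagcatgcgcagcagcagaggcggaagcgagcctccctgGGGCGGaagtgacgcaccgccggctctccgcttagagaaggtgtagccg
The Sqstm1 window held 3 GC boxes and 1 TATA box and the Tax1bp1 window 1 GC box. The TATAAA letters of Sqstm1 began at base -1 from the annotated start, so they lay across that start. Of 32851 promoters of this length 35.66% held a GC box and 13.62% a TATA box on either strand. An antioxidant response element (TGACNNNGC), the motif of NRF2, was found in the window of Map1lc3b and in a second window of Tax1bp1 and in none of the other members, against 12.39% of all promoters. An E-box (CACGTG), the longer CLEAR palindrome that contains it and that TFEB binds, and a FOXO motif (GTAAACA) were in 0 of the members' windows, against 7.15%, 0.326% and 3.65% of all promoters. These letters say nothing of elements outside the windows.

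Other genes of autophagy were described from 7 lists, in which 112 of 116 genes were tested. No gene passed the adjustment (limma, adjusted p at least 0.103), while 11 genes were higher and 7 lower at an unadjusted p below 0.05, against 11.5% and 7.97% of all tested genes. Of the 112 genes 70 had a higher mean in lipophagy livers (54.5% of all tested genes). Without overlap 26 were higher (15.4% of all tested genes) and 12 lower (10.8% of all tested genes, so that the lower count is near the background). With livers scaled to the same FPKM sum this balance turned round, with 19 genes higher, 1 of them without overlap (2.74% of all tested genes), and 26 lower without overlap (27.2% of all tested genes). Every list median was then below 0, against a median of -0.12 over all tested genes.

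Upstream of the ATG8 proteins, Atg13, a subunit of the ULK kinase complex that starts autophagosome formation, had the lowest adjusted p of all lists. It was at 9.69, 11.1 and 10.6 FPKM in control livers and 17.1, 14.3 and 15.1 FPKM in lipophagy livers, a log2 difference of 0.53 (standard error 0.092, adjusted p = 0.103, limma), or 0.36 with the same sum. Ulk1, the kinase itself, named after its values were seen, was at 11.96, 10.01 and 10.8 FPKM in control livers and 14.1, 14.005 and 16.2 FPKM in lipophagy livers (0.40, standard error 0.095, adjusted p = 0.134, limma). In both genes all lipophagy livers lay above all controls. The list of initiation and phosphatidylinositol 3-kinase genes had 17 of 22 genes higher and a median log2 difference of 0.081, but 3 higher and a median of -0.082 with the same sum, and its lowest value was that of Vmp1, a scramblase of the endoplasmic reticulum (-0.19, standard error 0.14, overlapping livers, -0.34 without control liver 1, -0.10 without control liver 3 and -0.37 with the same sum).

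In the conjugation machinery 10 of 12 genes were higher, with a median of 0.12, but 1 of 12 was with the same sum, with a median of -0.044. Atg3, the E2-like enzyme that hands ATG8 proteins to phosphatidylethanolamine, was at 36.4, 35.5 and 36.2 FPKM in control livers and 45.8, 41.6 and 44.7 FPKM in lipophagy livers. The groups were apart, with a log2 difference of 0.28 (standard error 0.074, adjusted p = 0.146, limma) that was 0.10 with the same sum, and Atg16l2, a relative of ATG16L1, had the lowest value of the list (-0.28, standard error 0.12, overlapping livers, or -0.44 with the same sum). Membrane-bound and other cargo receptors, which carry their own LIR or bind cargo in other ways, were higher in 17 of 21 genes, with a median of 0.13, but in 5 of 21 with the same sum, with a median of -0.049. Stbd1, a glycogen-binding protein that has been described as a receptor for glycogen, was at 51.5, 61.9 and 58.3 FPKM in control livers and 71.2, 75.9 and 77.5 FPKM in lipophagy livers (0.38, standard error 0.091, adjusted p = 0.134, limma, or 0.20 with the same sum). Wdfy3, which encodes the aggregate-binding protein ALFY, was the lowest of this list at -0.13 (standard error 0.12, overlapping livers), with -0.058 without lipophagy liver 1, -0.25 without lipophagy liver 3, -0.24 with the same sum and -0.054 after quantile normalization.

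Among kinases and ubiquitin ligases that act on the receptors 8 of 16 genes were higher, and 2 with the same sum. Ikbke, a kinase related to TBK1, had the highest value (0.43, standard error 0.19, overlapping livers), which was 0.24 without lipophagy liver 1 and 0.65 without lipophagy liver 2, and 0.26 with the same sum. Tnip1, a ubiquitin-binding partner of A20, had the lowest (-0.30, standard error 0.095, adjusted p = 0.182, limma, or -0.45 with the same sum), at 5.70, 5.83 and 6.57 FPKM in control livers and 4.22, 5.22 and 4.76 FPKM in lipophagy livers. In the list of TFEB and FOXO control, which holds the transcription factors of autophagy genes and their nutrient regulators, 6 of 14 genes were higher and the median was -0.0093, or 5 genes and -0.17 with the same sum. Foxo1 (0.24, standard error 0.15) and Tfe3 (-0.24, standard error 0.10), both transcription factors, marked its ends with overlapping livers, and Foxo1 was at 0.35 without lipophagy liver 1 and at 0.076 without lipophagy liver 3. With the same sum Foxo1 was at 0.099 and Tfe3 at -0.40 (adjusted p = 0.0644, limma). For fusion with lysosomes 10 of 17 genes were higher, or 3 with the same sum, from Ykt6, a SNARE of autophagosomes (0.29, standard error 0.083, adjusted p = 0.162, limma, or 0.11 with the same sum), to Stx7, a SNARE of late endosomes (-0.15, standard error 0.083, or -0.32 with the same sum).

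**Figure D4:**
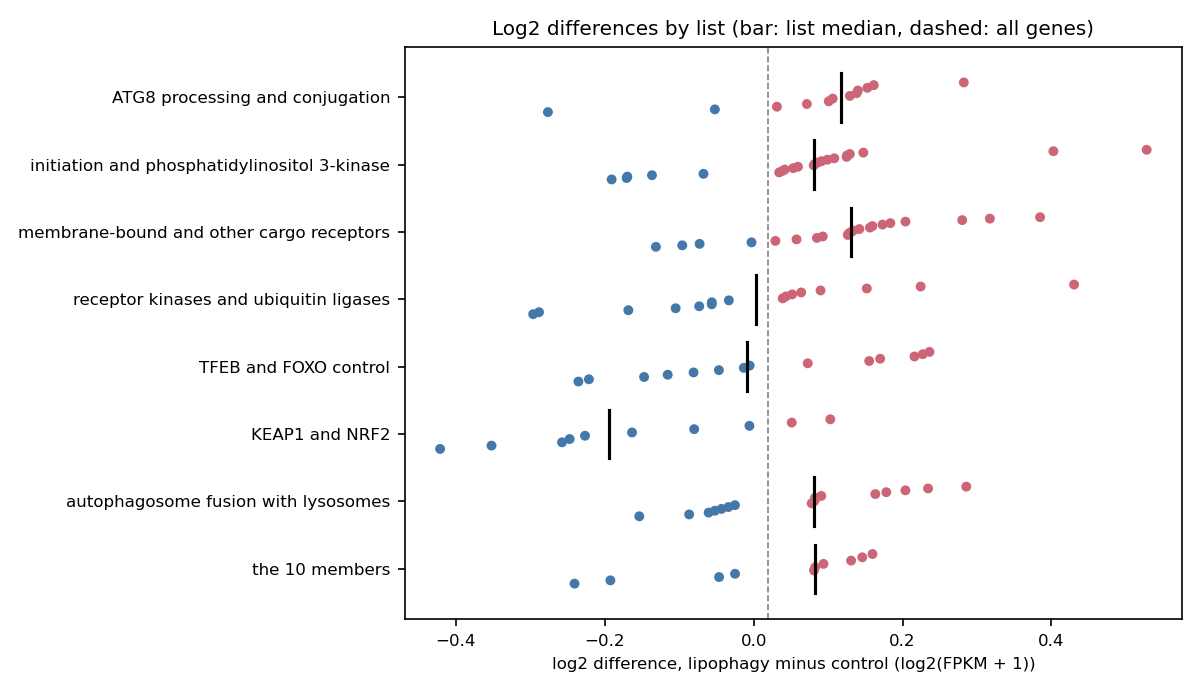
Log2 difference (lipophagy minus control, on log2(FPKM + 1)) of each tested gene in 7 lists and of the 10 member genes, coloured by sign, with the median of each list as a bar and the median of all tested genes (0.020) as a dashed line. At this deposited scaling the list medians lie between -0.0093 and 0.13 except for the KEAP1 and NRF2 list at -0.19.

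The list that stood lowest was that of KEAP1 and NRF2, the antioxidant pathway that p62 protein feeds by taking KEAP1 away from NRF2 and that in turn drives Sqstm1. Of its 10 tested genes 8 were lower in lipophagy livers, with a median log2 difference of -0.19, and 5 were lower without overlap, against 10.8% of all tested genes, and 1 higher, against 15.4%. Hmox1, heme oxygenase 1, was at 24.6, 22.1 and 21.7 FPKM in control livers and 16.3, 16.2 and 17.8 FPKM in lipophagy livers. Its log2 difference was -0.42 (standard error 0.083, adjusted p = 0.124, limma), and -0.60 with an adjusted p of 0.0463 (limma) when livers were scaled to the same sum. Nfe2l2, the gene of NRF2, was at 42.2, 45.1 and 42.4 FPKM in control livers and 37.1, 33.7 and 37.3 FPKM in lipophagy livers (-0.26, standard error 0.078, adjusted p = 0.170, limma). Srxn1 (sulfiredoxin) was at 48.3, 50.8 and 49.1 FPKM in control and 41.8, 44.2 and 30.8 FPKM in lipophagy livers. Sqstm1 was lowest in lipophagy liver 3, as were Srxn1, Txnrd1, Gclc, Nqo1 and Keap1, but not Hmox1, Nfe2l2, Gclm, Rbx1 or Cul3.

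The ligase that holds NRF2 down is built from KEAP1 and a cullin. Keap1 was at 17.3, 17.8 and 18.1 FPKM in control livers and 18.0, 18.8 and 16.3 FPKM in lipophagy livers (-0.0057, standard error 0.080), and Cul3, the cullin that KEAP1 recruits, had the highest value of the list (0.10, standard error 0.069) and was the gene that was higher without overlap, at 18.9 to 19.8 FPKM in control and 20.9 to 21.1 FPKM in lipophagy livers. With the same sum Cul3 was at -0.072 and after quantile normalization at 0.0055. Over the alternatives 7 to 10 genes of the list were lower, and the list's median minus the median of all genes was -0.31 to -0.13. Genes of this list other than Hmox1 and Cul3 were named after their values were seen.

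**Figure D5:**
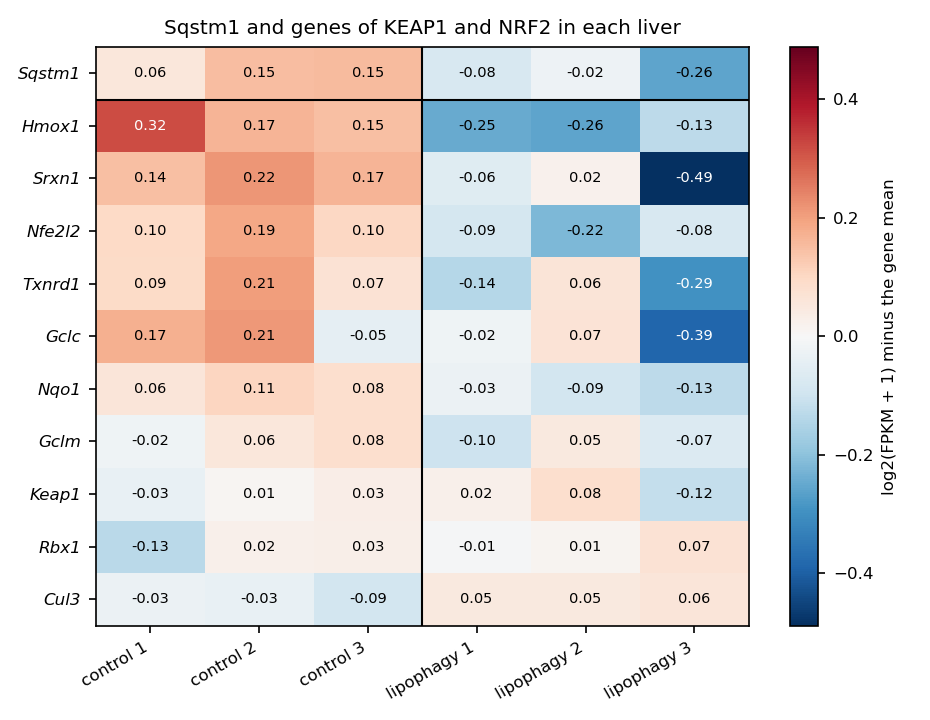
Deviation of log2(FPKM + 1) from the gene's mean over the 6 livers for Sqstm1 and the 10 tested genes of the KEAP1 and NRF2 list, by liver. Sqstm1 is at 0.056 to 0.15 in control livers and -0.26 to -0.024 in lipophagy livers, and Hmox1, Nfe2l2 and Nqo1 have the same signs in every liver.

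The genes most like Sqstm1 over the 6 livers were, by Pearson correlation on the log2 scale, Slc15a3 (r = 0.995), a histidine and peptide transporter of endolysosomes, Slc48a1 (0.993), a heme transporter of endolysosomes, Cenpt (0.991), a centromere protein, Zdhhc1 (0.988), a palmitoyltransferase, and Gnai2 (0.986), a G protein subunit. All of them were lower in each lipophagy liver than in every control liver, as were 10.8% of all tested genes. Choosing them by their likeness to Sqstm1, whose groups did not overlap, all but fixed this in advance. Slc48a1, for example, was at 34.9, 36.4 and 37.4 FPKM in control livers and 32.9, 33.4 and 29.6 FPKM in lipophagy livers. With 6 livers that share their group difference and their scaling, 65 genes had an r above 0.95, so that this order is only a description.

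Markers of liver cells and of the vector are given as measured beside these values. Hepatocyte markers were higher in 5 of 6 genes and their sum was higher in each lipophagy liver. Macrophage markers, which stand for a cell type that also expresses Sqstm1, summed to 470 to 624 FPKM in control livers and 459 to 583 FPKM in lipophagy livers, with 4 of 6 genes lower. Within that list, whose genes are given because the sum is mostly Lyz2 (log2 difference -0.15, standard error 0.18), the 2 genes with groups that did not overlap were Cd68 (-0.38, standard error 0.13) and Csf1r (-0.28, standard error 0.077), both lower. Of all tested genes 26.2% did not overlap in either direction, and 10.8% were lower without overlap. Cd5l was at -0.094 (standard error 0.11), while Adgre1 (0.054, standard error 0.12) and Clec4f (0.17, standard error 0.14) had higher means, and these groups overlapped. In the other cell lists groups did not overlap for 3 hepatocyte, 3 stellate cell and 1 neutrophil marker. Single markers were named after their values were seen. Stellate cell markers summed to 35.1 to 39.3 FPKM in control and 23.5 to 28.9 FPKM in lipophagy livers (4 of 5 genes lower). This sum was mostly Col3a1 (-0.58, standard error 0.12) and Col1a1 (-0.75, standard error 0.13). Des was at -0.050 (standard error 0.075), and Lrat had a higher mean (0.25, standard error 0.14). Bile duct markers summed to 137 to 247 and 92.0 to 196 FPKM (5 of 5 lower), mostly Spp1 (131 to 236 and 87.4 to 187 FPKM). Endothelial markers summed to 6.71 to 8.94 and 6.29 to 9.20 FPKM (1 of 5 lower). Lymphocyte markers summed to 3.53 to 3.74 and 2.61 to 2.88 FPKM (2 of 2 tested lower), and neutrophil markers to 17.6 to 30.03 and 14.9 to 17.5 FPKM (2 of 2 tested lower). No marker in the table was at 0 in all livers. The part of these cells in the values of Sqstm1 and of the KEAP1 and NRF2 list was not tested. Plin1, of which both vectors carry a stretch, was at 160, 116 and 120 FPKM in control livers and 97.9, 97.9 and 81.9 FPKM in lipophagy livers (log2 difference -0.49, standard error 0.14, adjusted p = 0.157, limma). Whether reads from the vectors were counted towards Plin1 was not tested.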

How the data were processed

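RNA from 3 control and 3 lipophagy livers was made into stranded poly(A) libraries and sequenced with paired 100-base reads. The authors deposited FPKM values per gene symbol, scaled to transcript length and to mapped fragments. The submitters' processing notes name TopHat2 2.0.13, Bowtie2 2.2.3, SAMtools 0.1.19, Cufflinks 2.2.1 and mm10; the annotation is not given in the sources used here. A count model was not applied to FPKM.

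Groups came from the sample labels. From the deposited values log2(FPKM + 1) was computed, and 11493 genes averaging 0.5 FPKM or more were tested with limma 3.58.1 (R 4.3.3, intensity trend, two-sided, Benjamini-Hochberg adjustment, threshold 0.05) without covariates; fold changes of low genes are understated. The procedure was tested on simulated data with shifts far larger than the differences of the members. Its power at such smaller differences was not tested. For sums and ratios the exact permutation test was used, two-sided. Whether the livers came from separate cages or batches is not stated, so p-values measure the spread between these livers. The 10 members and all lists were chosen with earlier results of these data known. Named were the members, the genes with the highest and lowest difference and any called gene of each list, the 5 genes most correlated with Sqstm1, and Plin1; others are marked as chosen after their values were seen.

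Depth was estimated from steps of 1 fragment: in 5 livers 46.1% to 61.4% of low values, compared with control liver 1, lay on steps (tolerance 0.2%), against 0.209% to 0.359% at other depths. Alternatives were other pseudocounts, filters and scalings, limma without the trend, a replicate block and leaving out each liver. Tables were handled with pandas 2.3.3 and numpy 2.4.6 in Python 3.11.15, and plots drawn with matplotlib 3.10.9.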

Additional observations from a re-analysis of the deposited data

How the results depend on the processing

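Over all alternatives 17 differences reversed, 2 passed the threshold and 26 counts changed by more than 1.5 times. The cause was not tested except where the scaling itself is the change.

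Scaling livers to the same FPKM sum shifted the median of all genes by -0.14 and moved the called genes from 3 to 104, with 1 member (Sqstm1) and 1 gene of the lists (Hmox1) among them. It left 0 members higher in place of 6, with log2 differences of -0.049 for Map1lc3b, -0.037 for Gabarap, -0.10 for Gabarapl1, -0.10 for Gabarapl2, -0.085 for Nbr1, -0.020 for Tax1bp1 and -0.072 for Cul3, and turned the ATG8 sum to -36.6 FPKM. Of genes with an unadjusted p below 0.05, 1327 were higher at the deposited scaling, 236 with this scaling, 745 after quantile normalization and 800 without lipophagy liver 1, where 1464 passed in either direction in place of 2243. Quantile normalization gave -0.018 for Map1lc3b, -0.033 for Gabarap, -0.096 for Gabarapl1, -0.054 for Gabarapl2 and -0.037 for Nbr1, an ATG8 sum of -30.2 FPKM, and 1 member higher. Sqstm1 was lower under all 16 alternatives (-0.42 to -0.17).

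Without a filter 1 gene was called. With each liver left out in turn 1 to 11 genes were called, where leaving out control liver 2 gave 7 and control liver 3 gave 1, and leaving out lipophagy liver 2 gave 5 and lipophagy liver 3 gave 11. Over these fits Gabarapl2 ranged from -0.023 (control liver 1 left out) to 0.14, Optn from -0.060 to 0.019 (control liver 1 left out) and Map1lc3a from -0.16 to 0.051 (control liver 2 left out). Called members stayed at 0 in these fits.

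The replicate numbers were also used as a block. Livers with the same number deviated together with correlations of 0.25, 0.23 and -0.057, against -0.39 to 0.25 for livers with different numbers. With 3 livers per group these values cannot decide whether the numbers pair the livers. With this block 43 genes were called, 0 of them members, and for Sqstm1 the unadjusted p was 0.0550 (limma).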
